A study of Homo sapiens with 24 samples.

Results

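The genes described here are 38 genes of DNA replication and S phase, listed by name, with earlier results of these data known. They were measured in HK-2 cells under low oxygen, transforming growth factor β1 (TGF-β1) and an activator of soluble guanylate cyclase. All 38 symbols matched an Ensembl gene ID of the table, which holds 65180 IDs, and all 38 passed the filter on low counts in both experiments. By role they comprise 10 genes of origin licensing (ORC1, ORC6, CDC6, CDT1 and MCM2 to MCM7), 6 of helicase activation (MCM10, CDC45 and GINS1 to GINS4), 5 of the replicative polymerases (POLA1, PRIM1, POLD1, POLE and POLE2), and 5 of the sliding clamp and its loader (PCNA and RFC2 to RFC5). The other members are 2 genes that finish lagging strand fragments (FEN1 and LIG1), 4 of nucleotide supply (RRM1, RRM2, TYMS and TK1), 3 of chromatin copying (UHRF1, CHAF1A and CHAF1B) and 3 of S phase entry (E2F1, CCNE1 and CCNE2).

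As background, replication origins are licensed in G1 when the origin recognition complex, CDC6 and CDT1 load the MCM2 to MCM7 helicase onto DNA. At S phase entry, cyclin E with its kinase and the E2F transcription factors lead to recruitment of CDC45 and GINS, which switch the helicase on, and polymerases then copy the strands while held by the PCNA clamp. Most of these genes are transcribed together in late G1 and S phase, and injured tubular epithelium is known to re-enter the cell cycle.

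HK-2 is a human proximal tubular epithelial line immortalised with papillomavirus oncogenes, so every group is a culture of 1 line whose control of S phase entry is altered, and no group carries a further genetic change. Per the labels' protocols all cultures were serum-deprived overnight before 24 h of incubation, and the labels call the replicates biological without saying what separated them. Normoxic cells received solvent (5 libraries), TGF-β1 at 2 ng/mL (5), TGF-β1 with BAY 60-2770 (5) or BAY 60-2770 alone (3), and cells at 0.3% oxygen received solvent (3) or BAY 60-2770 (3). BAY 60-2770, called BAY below, switches on soluble guanylate cyclase, which otherwise answers to nitric oxide by making cyclic GMP. Its labelled dose of 1 mM is doubtful, because such compounds are used far lower in culture, so every BAY effect below is that of an uncertain dose. Solvent controls held the solvents of both agents (DMSO, and HCl with albumin).

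The deposited estimated counts summed to between 78862528 and 105571250 per library. Levels below are CPM (counts per 1e+06 counts, scaled by the TMM method over all 24 libraries). Differences are log2 fold changes from edgeR's quasi-likelihood test, with Benjamini-Hochberg adjustment over every gene tested, and a gene that passed an adjusted p of 0.05 is said to have risen or fallen. Mitochondrially encoded transcripts made up 7.29% of counts in normoxic solvent controls, 5.20% with TGF-β1 and 3.65% in hypoxia with solvent, and their part in the results was not tested. Within the 3 groups of 5, libraries fell into 2 subsets along the first component of the spread within groups, which held 13.4% of that spread. Subset 2 held controls 3 and 4 and replicates 3 to 5 of both TGF-β1 groups, and 27 of 38 members were higher in subset 2 than in subset 1 in each of the 3 groups, with median log2 gaps of 0.0286 in controls, 0.0331 with TGF-β1 and 0.0703 with both agents. The share of all genes that were higher in subset 2 was not computed. The labels name no batch that matches these subsets. Among markers of proximal tubule, PAX8 (313 CPM over all libraries), GGT1 (166), KRT8 (629) and KRT18 (295) were abundant, but the transporter SLC22A6 was at 0 in all 24 libraries, and LRP2, CUBN, SLC5A2, AQP1 and ANPEP were each below 1 CPM on average. Among markers of other cells, the podocyte slit diaphragm gene NPHS1 was at 0.0327 CPM, the T cell gene CD3E was at 0 and PECAM1 of endothelium was at 0.0305 CPM, while SYNPO (261 CPM) of the podocyte list, CD74 (159), CD68 (132) and CSF1R (41.5) of the immune list and EGFL7 (36.4) of the endothelial list were not low. The summed 5 podocyte markers ran from 69.1 to 90.2 CPM in controls, from 451 to 486 CPM in hypoxia and from 1228 to 1351 CPM in hypoxia with BAY (1 of 2 tested rose and 1 fell in each step, SYNPO carrying the rise). The summed 7 fibroblast markers ran from 109.8 to 134 CPM in controls and from 286 to 299.5 CPM with TGF-β1 (2 of 4 tested rose and 1 fell), and in hypoxia from 124 to 131 CPM with solvent and from 223 to 242 CPM with BAY (2 of 4 rose). The summed 7 immune markers ran from 384 to 409 CPM in controls, from 256 to 265 CPM with BAY in normoxia (all 3 tested fell) and from 271 to 305 CPM with TGF-β1 (1 rose and 2 fell), and the summed 6 distal nephron markers from 36.6 to 39.1 CPM in controls and from 7.98 to 10.1 CPM with TGF-β1 (1 rose and 2 fell). Their part in the results was not tested.

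Promoter sequence is shown for the members that fell most in hypoxia, so that letters shared upstream of genes that moved together can be seen. The sequences are from RefSeq (GRCh38.p14), which held a promoter for 34 of the 38 members. Each is the part of the 250 bases before the start listed there that carries no annotated exon. The windows of UHRF1 and CDC45 lie inside the gene spans given below, so they precede a later start and not the first base of the gene. The 4 genes are those with the largest falls in hypoxia among the members with an entry, and MCM6 was added after its matches were seen. Capitals mark 2 searched motifs on either strand, the E2F letters (TTTCCCGC, TTTCGCGC, TTTGGCGC or TTTGCCGC) and CCAAT, and the windows of PCNA (chr20:5126627-5126785, minus strand), UHRF1 (chr19:4909251-4909429, plus), MCM10 (chr10:13161308-13161553, plus), CDC45 (chr22:19479670-19479737, plus) and MCM6 (chr2:135876444-135876693, minus) read, 5′ to 3′:
PCNA: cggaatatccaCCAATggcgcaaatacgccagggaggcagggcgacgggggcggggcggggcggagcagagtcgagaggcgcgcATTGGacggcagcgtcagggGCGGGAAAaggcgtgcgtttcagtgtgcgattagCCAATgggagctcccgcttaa
UHRF1: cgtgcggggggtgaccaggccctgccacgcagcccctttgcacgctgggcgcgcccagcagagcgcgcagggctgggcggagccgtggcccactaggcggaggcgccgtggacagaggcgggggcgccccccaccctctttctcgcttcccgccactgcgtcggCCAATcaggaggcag
MCM10: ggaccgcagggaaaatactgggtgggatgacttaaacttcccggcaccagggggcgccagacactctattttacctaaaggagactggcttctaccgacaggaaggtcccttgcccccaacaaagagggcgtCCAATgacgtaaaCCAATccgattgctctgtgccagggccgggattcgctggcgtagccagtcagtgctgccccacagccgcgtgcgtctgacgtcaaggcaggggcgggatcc
CDC45: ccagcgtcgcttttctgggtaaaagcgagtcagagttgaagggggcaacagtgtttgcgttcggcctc
MCM6: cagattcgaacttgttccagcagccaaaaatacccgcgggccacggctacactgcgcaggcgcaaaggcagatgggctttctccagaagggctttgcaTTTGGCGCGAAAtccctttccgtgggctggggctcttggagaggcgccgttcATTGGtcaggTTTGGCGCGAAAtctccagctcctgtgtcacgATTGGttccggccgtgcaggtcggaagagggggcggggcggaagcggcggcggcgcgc

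Over the full 250 bases before the start, E2F letters were present in 13 of the 34 members (38.2%) and in 761 of 27305 promoters of the table (2.79%). CCAAT was present in 20 of the 34 (58.8%) and in 33% of all promoters. The CHR letters (TTTGAA), which are known from promoters of mitosis genes, were present in 1 of the 34 (2.94%) and in 13.6% of all. MCM6 held the most E2F matches, 4 that overlap on opposite strands in 2 copies of the run printed in capitals above, while the MCM10 and CDC45 windows held none. These are matches of letters and not measured sites. The E2F match of UHRF1 and the 4 CCAAT matches of CDC45 lie in the exon-bearing part that is not printed.

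Compared per length of merged exons, the members spanned a wide range of levels in normoxic solvent controls. PCNA, the clamp that tethers polymerases, was highest at 165 ± 5.68 CPM per kb (SD, n = 5), followed by the helicase subunits MCM7 at 92.5 ± 1.61 and MCM3 at 74.4 ± 2.61 CPM per kb. The levels of these 3 did not overlap beyond their spread. TYMS, which makes thymidylate, stood at 54.4 ± 1.02 and TK1, the thymidine salvage kinase, at 53.5 ± 4.57 CPM per kb, so these neighbours did not differ beyond their spread. At the low end were MCM10 (4.04 ± 0.25), GINS3 (3.98 ± 0.142) and GINS4 (3.77 ± 0.105 CPM per kb), all factors that turn the loaded helicase on, and MCM10 and GINS3 did not differ beyond their spread.

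The first comparison asked how 24 h at 0.3% oxygen changed these genes in solvent-treated cells. Of the 38 members, 36 fell and 2 rose (CDT1 and PRIM1), with a median log2 fold change of -0.94 and a range from -1.90 to 0.77, and 18 fell by at least 2-fold, as did 6.61% of all genes. Over the 21316 genes tested, 60.8% were called, 31.6% as lower and 29.2% as higher, and the median was -0.02. In all 38 members the 3 hypoxic and 5 normoxic libraries did not overlap, as in 57.2% of all genes. In bulk RNA, fewer cells in S phase and less of these transcripts per cell cannot be told apart.

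All 3 S phase entry genes fell. CCNE2, a cyclin that activates CDK2 (ENSG00000175305, chr8:94879770-94896678, minus strand), was at 18.6, 19.8, 26.7, 26.2 and 20.8 CPM in the controls and 6.06, 5.80 and 6.22 CPM in hypoxia. Every hypoxic library lay far below the lowest control, although the controls themselves split by subset, and the log2 fold change was -1.90 (SE 0.146, adjusted p 8.01e-08), the lowest of all members. Its paralog CCNE1 fell by 1.42, from 14.9 ± 1.93 to 5.55 ± 0.574 CPM (SD, n = 5 and 3), and E2F1, the transcription factor that drives many members, fell by 1.36, from 49.8 ± 3.10 to 19.4 ± 1.21 CPM.

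The clamp and its loader fell unevenly. PCNA (ENSG00000132646, chr20:5114953-5126626, minus strand) was at 238, 230.5, 246, 246 and 252 CPM in the controls and 63.8, 70.3 and 71.1 CPM in hypoxia. The highest hypoxic library lay below the lowest normoxic one, and PCNA fell by 1.82 on the log2 scale (SE 0.0767, adjusted p 3.35e-11). The 4 loader subunits that open the clamp ring around DNA fell by less: RFC3 by 0.82, RFC4 by 0.72, RFC5 by 0.28 and RFC2 by 0.17. RFC2 was at 51.0 ± 1.27 CPM in controls and 45.3 ± 1.69 CPM in hypoxia (SD, n = 5 and 3).

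Chromatin copying genes followed the clamp. UHRF1, which recognises hemimethylated DNA behind the fork and recruits the maintenance methyltransferase (ENSG00000276043, chr19:4903080-4962154, plus strand), was at 78.5, 76.6, 81.7, 79.4 and 82.1 CPM in controls and 24.6, 26.5 and 23.4 CPM in hypoxia. The hypoxic levels were all below the lowest control, and UHRF1 fell by 1.68 (SE 0.0858, adjusted p 4.65e-10). CHAF1A and CHAF1B, the large and middle subunits of the assembly factor that places new histones, fell by 0.71 and 1.03.

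All 6 helicase activation genes fell, with a median log2 fold change of -1.05. MCM10, which is needed to start the loaded helicase (ENSG00000065328, chr10:13161554-13211104, plus strand), was at 21.2, 20.7, 22.7, 24.1 and 21.5 CPM in controls and 7.83, 7.72 and 7.29 CPM in hypoxia, and fell by 1.53 (SE 0.0866, adjusted p 4.51e-10). CDC45, a subunit of the active helicase (ENSG00000093009, chr22:19479459-19520612, plus strand), fell by 1.48, from 20.1 ± 1.06 to 7.18 ± 1.01 CPM (SD, n = 5 and 3). The 4 GINS subunits lay close together and fell by 1.08 (GINS1), 0.96 (GINS2), 0.89 (GINS3) and 1.03 (GINS4).

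In origin licensing 9 of 10 genes fell and CDT1 rose. The 6 subunits of the MCM ring, which work as 1 complex, did not fall to the same degree: MCM6 fell by 1.40, MCM3 by 1.17, MCM4 by 1.09, MCM5 by 0.92, MCM7 by 0.74 and MCM2 by 0.43. MCM6 (ENSG00000076003, chr2:135839626-135876426, minus strand) was at 174, 172, 179, 176 and 184 CPM in controls and 65.4, 69.0 and 66.9 CPM in hypoxia (adjusted p 1.39e-12), whereas MCM2 (ENSG00000073111, chr3:127598223-127622436, plus strand) was at 289, 290.2, 286, 281 and 293 CPM and 207, 220.2 and 213 CPM (adjusted p 4.67e-08). CDC6, the ATPase that loads the ring with CDT1, fell by 1.35. ORC6 and ORC1, subunits of the origin recognition complex, fell by 1.04 and 0.30.

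CDT1, the partner of CDC6 in loading the MCM ring (ENSG00000167513, chr16:88803213-88809258, plus strand), went against the other licensing genes. It was at 66.4, 66.3, 64.3, 65.0 and 67.2 CPM in controls and 109.7, 109 and 116 CPM in hypoxia. All 3 hypoxic libraries exceeded every control, and CDT1 rose by 0.77 (SE 0.0361, adjusted p 5.88e-11). The other member that rose was PRIM1, the catalytic subunit of primase, which lays down the RNA primers, with 36.6, 35.2, 31.4, 32.9 and 36.0 CPM in controls and 36.8, 38.2 and 37.9 CPM in hypoxia. That rise was 0.13 (adjusted p 0.0175) and lost its call against controls of subset 1 alone and when libraries were scaled by their totals only (adjusted p 0.0778 to 0.197).

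The remaining polymerase genes fell. POLE2, an accessory subunit of the leading strand polymerase, fell by 1.33 to 5.29 ± 0.298 CPM (SD, n = 3), while the catalytic subunits POLE, POLA1 and POLD1 fell by 0.72, 0.60 and 0.35. FEN1, the flap nuclease of lagging strand maturation, fell by 1.36 and LIG1, the ligase that seals the nicks, by 0.60. In nucleotide supply RRM2, the regulated small subunit of ribonucleotide reductase, fell by 1.21, whereas its partner RRM1 fell by 0.40, TYMS by 0.58 and TK1 by 0.36. The fall of TK1 lost its call against controls of subset 2 alone (adjusted p 0.0581). The calls of 36 of the 38 members held under all 17 alternatives.

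The second comparison asked how 24 h of TGF-β1 changed these genes in normoxia. Here 32 members rose, 2 fell (CDT1 and MCM2) and 4 were not called, with a median log2 fold change of 0.44 and a range from -0.20 to 1.19. Over the 21639 genes tested, 62% were called, 29.5% as higher and 32.5% as lower, with a median of -0.04. Scaling by library totals alone moved the median of all genes to -0.18, and 8 of the 32 rises then lost their call (CHAF1B, LIG1, MCM6, MCM7, POLA1, POLE, RFC2 and RRM2, adjusted p 0.108 to 0.869).

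By median, the roles that rose most were S phase entry (0.756) and helicase activation (0.675). CCNE2 was at 18.6, 19.8, 26.7, 26.2 and 20.8 CPM in controls and 45.7, 46.2, 53.0, 54.5 and 55.6 CPM with TGF-β1. No library overlapped, and CCNE2 rose by 1.19 (SE 0.0979, adjusted p 7.77e-09). CCNE1 rose by 0.76 and E2F1 by 0.59. MCM10 with TGF-β1 was at 38.05, 37.4, 44.2, 44.2 and 44.1 CPM and rose by 0.91 (adjusted p 4.7e-11), with CDC45 up by 0.86 and GINS4 by 0.91. GINS3, GINS2 and GINS1 rose by less, 0.49, 0.45 and 0.30.

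Origin licensing genes did not move alike under TGF-β1. CDC6 (ENSG00000094804, chr17:40287633-40304657, plus strand) was at 45.4, 45.9, 51.5, 51.2 and 48.6 CPM in controls and 94.2, 91.5, 99.1, 97.6 and 99.9 CPM with TGF-β1. Every treated library exceeded every control, and CDC6 rose by 0.99 (SE 0.0376, adjusted p 6.85e-14). ORC6 and ORC1 rose by 0.77 and 0.47. Of the ring subunits, MCM4, MCM6 and MCM7 rose by 0.27, 0.15 and 0.12, while MCM3 (0.01) and MCM5 (0.05) were not called. Scaled by library totals alone, MCM3 and MCM5 fell by 0.13 and 0.083 (adjusted p 0.0304 and 0.00782), and POLD1, a polymerase gene not called here, by 0.18 (adjusted p 0.00796). MCM2 fell by 0.05 (adjusted p 0.0438), a call that was lost in 15 of 19 alternatives, among them the omission of controls 1, 2 or 5 or of any TGF-β1 library (adjusted p 0.0586 to 0.0908).

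CDT1 again moved against most members. With TGF-β1 it was at 60.2, 60.9, 55.9, 56.1 and 54.4 CPM, below every control, and fell by 0.20 (SE 0.0376, adjusted p 0.000167). This call held under all 19 alternatives.

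The clamp, its loader and the chromatin genes rose together. PCNA was at 347, 346, 352, 357 and 354 CPM with TGF-β1, all above the controls given earlier, and rose by 0.53 (SE 0.0278, adjusted p 6.49e-12). RFC3, RFC4 and RFC5 rose by 0.51, 0.49 and 0.52, and RFC2 by 0.12. The rise of RFC2 lost its call with library totals alone and in subset 2 alone (adjusted p 0.12 to 0.821). UHRF1 was at 116, 119, 131, 125 and 129 CPM and rose by 0.64 (adjusted p 6.93e-12), CHAF1A by 0.49 and CHAF1B by 0.20. FEN1 rose by 0.55 and LIG1 by 0.18.

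In nucleotide supply RRM1 rose by 0.50, TYMS by 0.43, TK1 by 0.32 and RRM2 by 0.21. Polymerase genes had the lowest median of any role under TGF-β1, 0.107. POLE2 rose by 0.38, POLE by 0.15 and POLA1 by 0.11, and PRIM1 (0.08) and POLD1 (-0.05) were not called. The rise of POLE lost its call without controls 1, 2 or 5 or without TGF-β1 replicates 3, 4 or 5 (adjusted p 0.0586 to 0.0734).

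**Figure D1:**
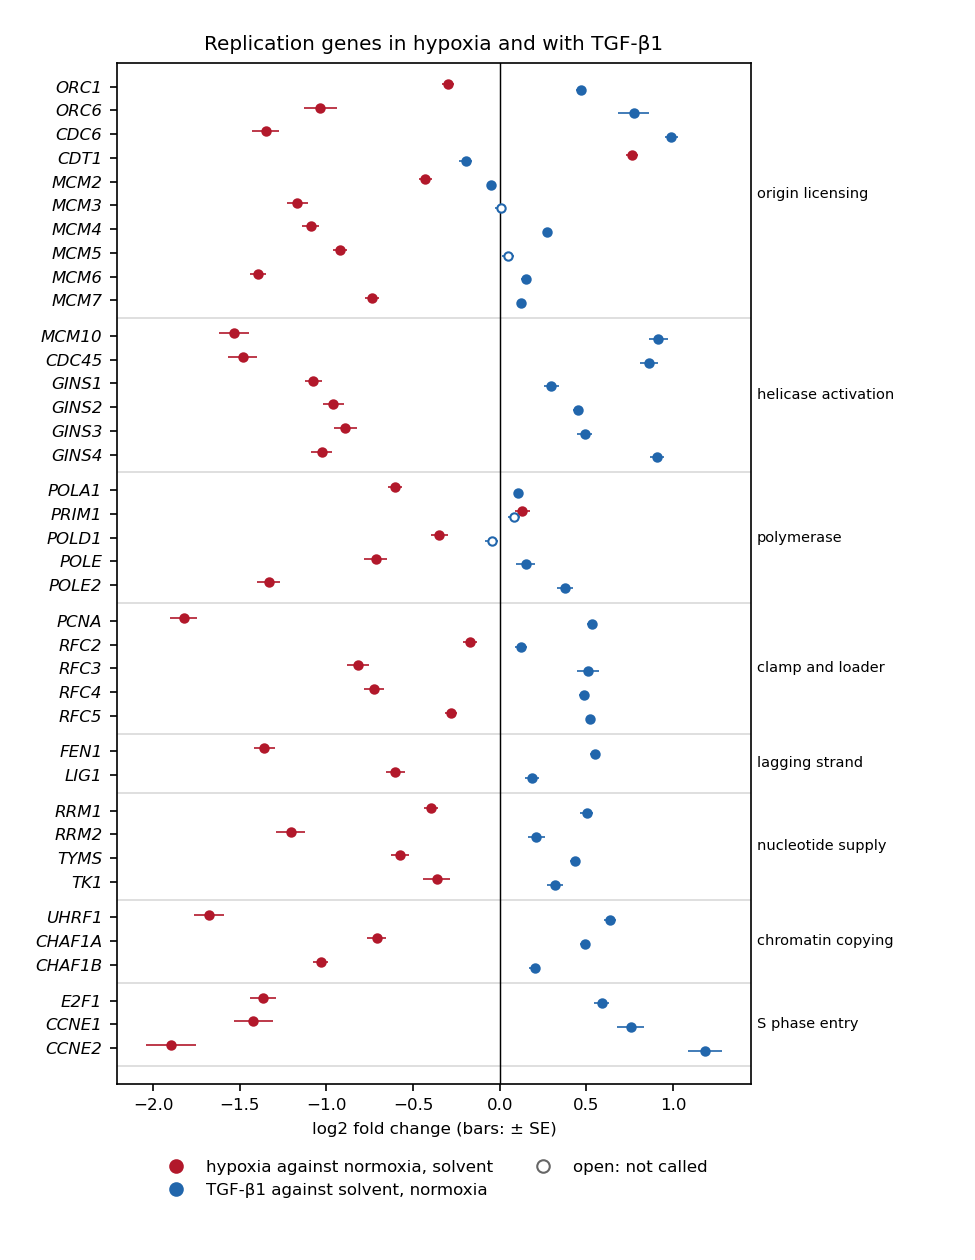
Log2 fold changes of the 38 members, by role, for hypoxia against normoxia with solvent (red) and for TGF-β1 against solvent in normoxia (blue), with bars of ± SE; open circles were not called. The red points lie left of 0 for all members but CDT1 and PRIM1, and 32 members have a filled blue point right of 0.

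Both comparisons use the same 5 normoxic solvent controls, so they are only set side by side. CDT1 rose in hypoxia and fell with TGF-β1. MCM2 fell in both, but its call with TGF-β1 was lost in 15 of 19 alternatives. MCM3, MCM5 and POLD1 fell in hypoxia and were not called with TGF-β1, and PRIM1 rose in hypoxia and was not called with TGF-β1. Summed over the 37 members other than RRM2, the level was 3502 ± 58.5 CPM in normoxic controls (SD, n = 5), 2030 ± 66.1 CPM in hypoxia (n = 3) and 4269 ± 59.3 CPM with TGF-β1 (n = 5).

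The third comparison asked what BAY did in normoxia, against the same 5 controls. No subset was assigned to the 3 BAY libraries. Their TMM scaling factors (1.091 to 1.095) lay near those of controls 3 and 4 (1.092 and 1.094). Those of controls 1, 2 and 5 were lower (1.028 to 1.035). Against all 5 controls a BAY effect and a subset gap cannot be fully told apart, and the part of the subsets was not tested. Of the members, 19 rose, 6 fell and 13 were not called, with a median log2 fold change of 0.15. Over all genes, 43.9% were called, 20.6% as higher and 23.3% as lower, with a median of 0.00. Apart from RRM2 the changes were small, and against the 2 controls of subset 2 alone 13 members were called, 10 of them higher. Of the 25 calls 12 held under all 17 alternatives: the rises of CCNE2, CDT1, CHAF1B, LIG1, ORC1, PRIM1, RFC5, RRM1 and RRM2 and the falls of MCM5, MCM6 and UHRF1. The rises of E2F1, GINS1, GINS4, ORC6, POLE and RFC3 lost their call only against controls of subset 2 alone (adjusted p 0.0546 to 0.123).

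RRM2 (ENSG00000171848, chr2:10120698-10131419, plus strand) stood apart from all other members. It was at 187, 186, 168, 159 and 201 CPM in normoxic controls and 726, 698 and 714 CPM with BAY. The lowest BAY library was more than 3 times the highest control, and RRM2 rose by 2.01, 4.01-fold (SE 0.0770, adjusted p 9.21e-11), the 158th highest fold change of 21316 genes. In hypoxia it was at 75.8, 79.6 and 78.2 CPM with solvent and 228, 266 and 197 CPM with BAY, a rise of 1.56 (SE 0.0905, adjusted p 8.39e-09) that returned the level to the range of normoxic controls or above it. RRM1, which pairs with RRM2 in the same enzyme, rose with BAY by 0.19 in normoxia and 0.32 in hypoxia. Of the processed copies of RRM2, RRM2P2 and RRM2P4 were at 0 in all libraries and RRM2P3 reached at most 0.0323 CPM in any (these were chosen after values were seen). Sharing of reads between RRM2 and such copies was not tested.

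The effect on RRM2 differed between settings. In TGF-β1-treated cells RRM2 was at 203, 206, 212, 211 and 212 CPM without BAY and 228, 229, 241, 244 and 247 CPM with it. The groups did not overlap, but the rise was 0.19 (SE 0.0475, adjusted p 0.00567), and the TGF-β1 by BAY interaction was -1.80 on the log2 scale (SE 0.0718, adjusted p 8.37e-12). That call held under all 27 alternatives. The oxygen by BAY interaction of RRM2 was -0.45 (adjusted p 0.0192) and lost its call without any 1 of the 3 BAY libraries in normoxia (adjusted p 0.0597 to 0.0786).

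**Figure D2:**
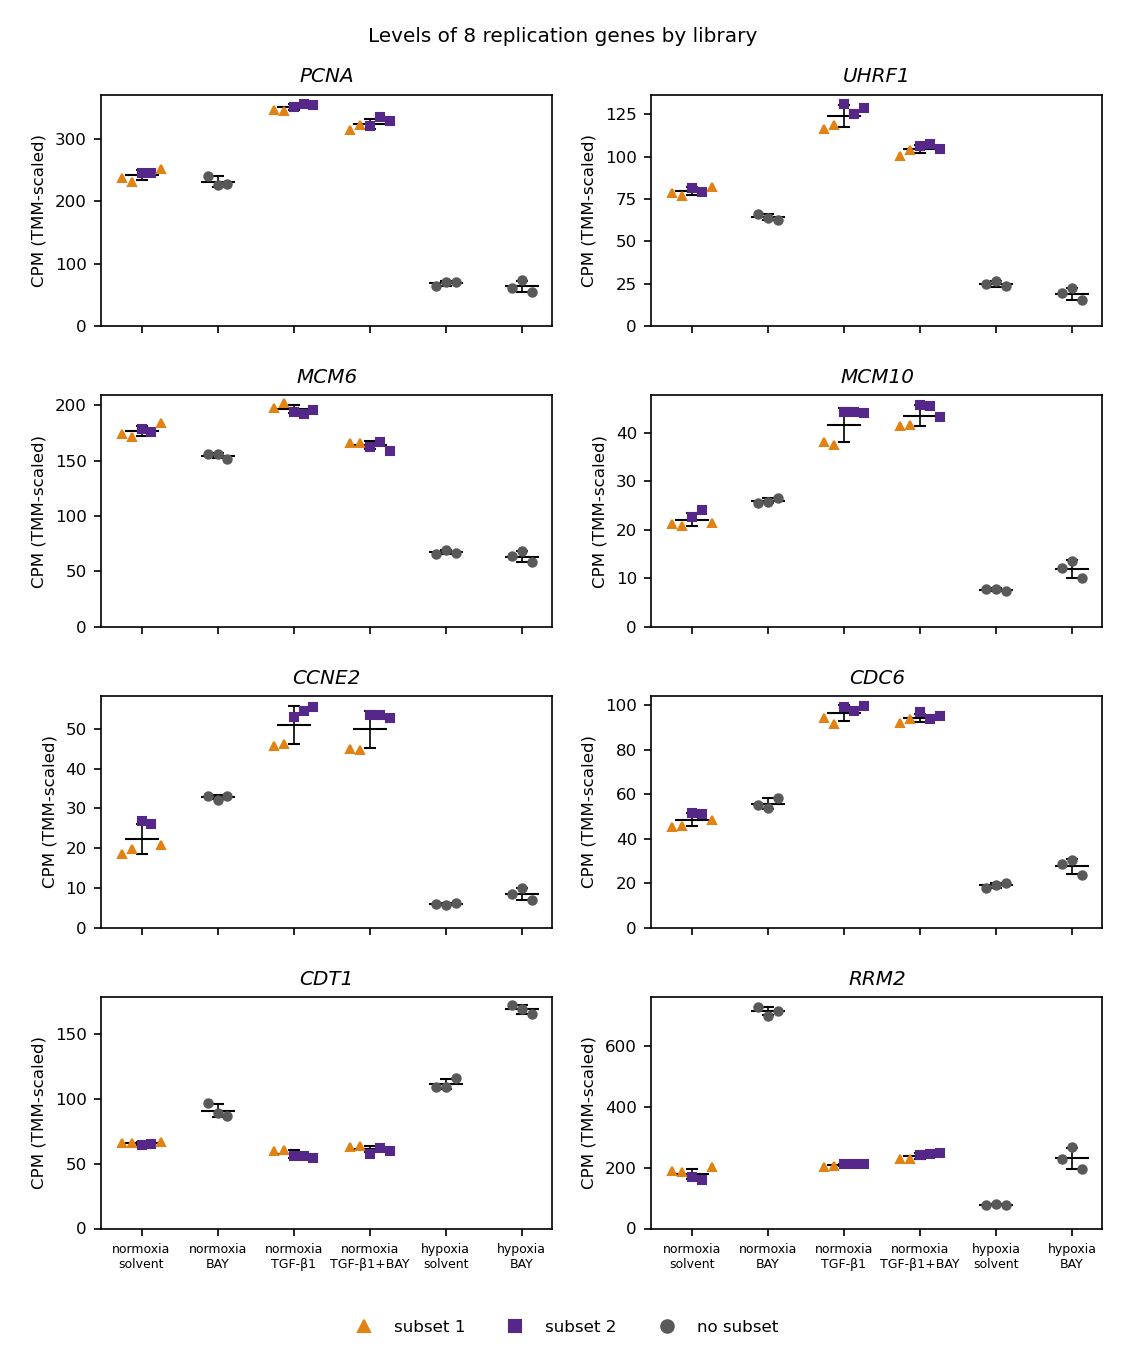
Levels of 8 members in every library (CPM, linear axes from 0) in the 6 groups; points are libraries, shaped by subset, and bars give the mean ± SD. RRM2 with BAY in normoxia lies between 698 and 726 CPM, above every other library, and CDT1 is the gene of the 8 that is higher in hypoxia with solvent than in controls.

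Licensing genes split with BAY in normoxia. CDT1 was at 97.1, 89.2 and 87.0 CPM with BAY, above every control, and rose by 0.49 (adjusted p 3.41e-08), and ORC1 rose by 0.34, ORC6 by 0.33 and CDC6 by 0.22. In contrast MCM5, MCM6, MCM2 and MCM7 fell by 0.20, 0.18, 0.12 and 0.11, and MCM3 (-0.00) and MCM4 (-0.06) were not called. Leaving out 1 library ended the calls of CDC6 (BAY 1 or 3, control 1 or 2, adjusted p 0.0519 to 0.101), MCM2 (BAY 3, 0.0524) and MCM7 (BAY 2 or 3, control 3, 4 or 5, 0.0647 to 0.118).

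Among the other roles CCNE2 showed the next highest rise after RRM2. It was at 33.0, 32.2 and 33.1 CPM with BAY and rose by 0.56 (SE 0.129, adjusted p 0.00313). All 5 controls lay lower, with a mean of 26.5 CPM in subset 2 and 19.7 CPM in subset 1. E2F1 rose by 0.31. UHRF1 was at 66.0, 64.0 and 62.7 CPM, below every control, and fell by 0.29 (adjusted p 0.00864). LIG1 rose by 0.28, POLE and PRIM1 each by 0.26, MCM10 by 0.26 and RFC3 by 0.22, whereas PCNA (-0.05) was not called. Calls lost without 1 library were those of MCM10 (BAY 3, adjusted p 0.0635), RFC4 (BAY 1 or 3, control 2, 0.0538 to 0.142), POLD1 (BAY 1 or 2, control 1, 2 or 5, 0.0609 to 0.105) and the fall of POLA1 (BAY 1 or 2, control 2, 3 or 5, 0.0526 to 0.148).

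The fourth comparison asked what BAY did in hypoxia, 3 libraries against 3. There 21 members rose, 2 fell (CCNE1 and UHRF1) and 15 were not called, with a median of 0.24. Over all genes 37.9% were called, 16.5% as higher and 21.4% as lower, with a median of -0.02. All but 5 of the 23 calls held under all 15 alternatives.

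After RRM2, the licensing factor ORC1 rose most in hypoxia with BAY. It was at 28.7, 28.0 and 29.1 CPM with solvent and 45.1, 45.9 and 46.3 CPM with BAY, and rose by 0.67 (SE 0.0385, adjusted p 3.19e-09). MCM10 was at 12.1, 13.6 and 10.0 CPM with BAY and rose by 0.64, CDT1 was at 173, 169.5 and 166 CPM and rose by 0.60, and CDC6 rose by 0.54. None of the 6 MCM ring subunits was called in hypoxia, with log2 values from -0.11 (MCM7) to 0.05 (MCM5). Scaled by library totals alone, MCM6 and MCM7 fell by 0.14 and 0.16 (adjusted p 0.036 and 0.0112). The difference from the BAY effect in normoxia was called for MCM5 (0.25, adjusted p 0.0108) and not for the other 5 subunits. The MCM5 call was lost in 1 of 23 alternatives, scaling by library totals alone (adjusted p 0.0628).

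Helicase activators other than GINS3 rose, with GINS4 up by 0.40. The loader subunits RFC3, RFC4 and RFC5 rose by 0.39, 0.46 and 0.34, LIG1 by 0.46 and PRIM1 by 0.39. CCNE1 fell by 0.47, from 5.65, 6.08 and 4.94 CPM to 4.09, 4.42 and 3.55 CPM (adjusted p 0.00656), while CCNE2 rose by 0.50 (adjusted p 0.0224). UHRF1 was at 19.3, 22.3 and 15.5 CPM with BAY, below the 3 hypoxic controls, and fell by 0.39 (adjusted p 0.00398). Leaving out BAY 1 or 2 or solvent 1 or 2 ended the calls of CCNE2 (adjusted p 0.056 to 0.103) and GINS2 (0.0502 to 0.0607), BAY 2 or solvent 1 that of CDC45 (0.0607 to 0.0635), BAY 2 that of ORC6 (0.0516), and any library but BAY 3 that of POLE (0.0709 to 0.151).

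With BAY the hypoxic level of most members remained below normoxia. The 37 members other than RRM2 summed to 2238 ± 130 CPM in hypoxia with BAY (SD, n = 3), against 2030 ± 66.1 CPM with solvent, and to 3531 ± 49.0 CPM with BAY in normoxia. The difference of BAY effects between oxygen levels was called in 8 members (16.8% of all genes were called, 8.83% as higher in hypoxia and 7.92% as lower). ORC1 (0.33, adjusted p 0.000487) was the 1 call of the 8 that held under all 23 alternatives. The count fell to between 3 and 5 without BAY 2 or solvent 5 in normoxia, without BAY 1 or 2 or without solvent 1 or 2 in hypoxia, and was 12 without BAY 3 in hypoxia.

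The fifth comparison asked what BAY did in cells that also received TGF-β1, 5 libraries against 5. Here 10 members fell, 4 rose and 24 were not called, with a median of -0.00. Over all genes 29.5% were called, 15.6% as lower and 13.9% as higher, with a median of 0.01. The falls were in the MCM ring and a few partners: MCM6 fell by 0.26, MCM5 by 0.24, MCM4 by 0.16, MCM7 by 0.14 and MCM2 by 0.13, and MCM3 (-0.07) was not called.

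MCM6 was at 198, 202, 194, 192 and 196 CPM with TGF-β1 and 166, 166, 162, 166 and 159 CPM with both agents. No library overlapped (adjusted p 1.38e-07), and the level with both agents was below that of normoxic controls. UHRF1 fell by 0.25, to 101, 104, 106.3, 107 and 104 CPM (adjusted p 1.55e-05), GINS2 by 0.25, TYMS by 0.14, POLA1 by 0.14 and PCNA by 0.11. PCNA was at 315, 323, 322, 335 and 329 CPM with both agents, below all TGF-β1 libraries and above all controls. The genes that rose were RRM2, GINS4 (0.18), E2F1 (0.12) and POLD1 (0.12).

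Of these 14 calls 11 held under all 19 alternatives. The rise of E2F1 lost its call without TGF-β1 replicate 2 or 4 or the replicate 4 with both agents (adjusted p 0.0628 to 0.086). The E2F1 call was also lost with library totals alone, with all 24 libraries in 1 fit and in subset 1 alone (0.0678 to 0.186). The call of POLD1 was lost without TGF-β1 replicate 1, 2 or 4 or replicate 3, 4 or 5 with both agents (0.0533 to 0.0875). With library totals alone and in subset 1 alone it was lost as well (0.2 to 0.659). Mean POLD1 in subset 1 was 68.35 CPM with TGF-β1 and 69.95 CPM with both agents. In subset 2 these means were 69.95 and 78.81 CPM. The fall of PCNA lost its call when all 24 libraries were fitted together (0.099).

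The TGF-β1 by BAY interaction, which asks whether BAY acted differently with and without TGF-β1, was called in 10 members, 9 of them lower and GINS3 higher (20.7% of all genes were called, 7.08% as lower and 13.7% as higher). Besides RRM2, the calls of CCNE2 (-0.58, adjusted p 0.00829), CDT1 (-0.38, 9.12e-05), ORC1 (-0.34, 1.07e-05), LIG1 (-0.24, 0.00749) and CDC6 (-0.24, 0.00541) held under all 27 alternatives. In each of these BAY raised the gene without TGF-β1, and with TGF-β1 its effect was not called. The calls of RFC5, GINS3, TK1 and GINS2 were lost in 21, 12, 7 and 2 of the 27 alternatives. Leaving out 1 library accounted for 15 of those for RFC5 (adjusted p 0.0508 to 0.137), 7 for GINS3 (0.0554 to 0.0998) and 6 for TK1 (0.0507 to 0.0972). For CDT1, the levels with TGF-β1 were 60.2, 60.9, 55.9, 56.1 and 54.4 CPM without BAY and 62.8, 63.6, 57.9, 62.3 and 60.2 CPM with it, and the ranges overlapped.

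**Figure D3:**
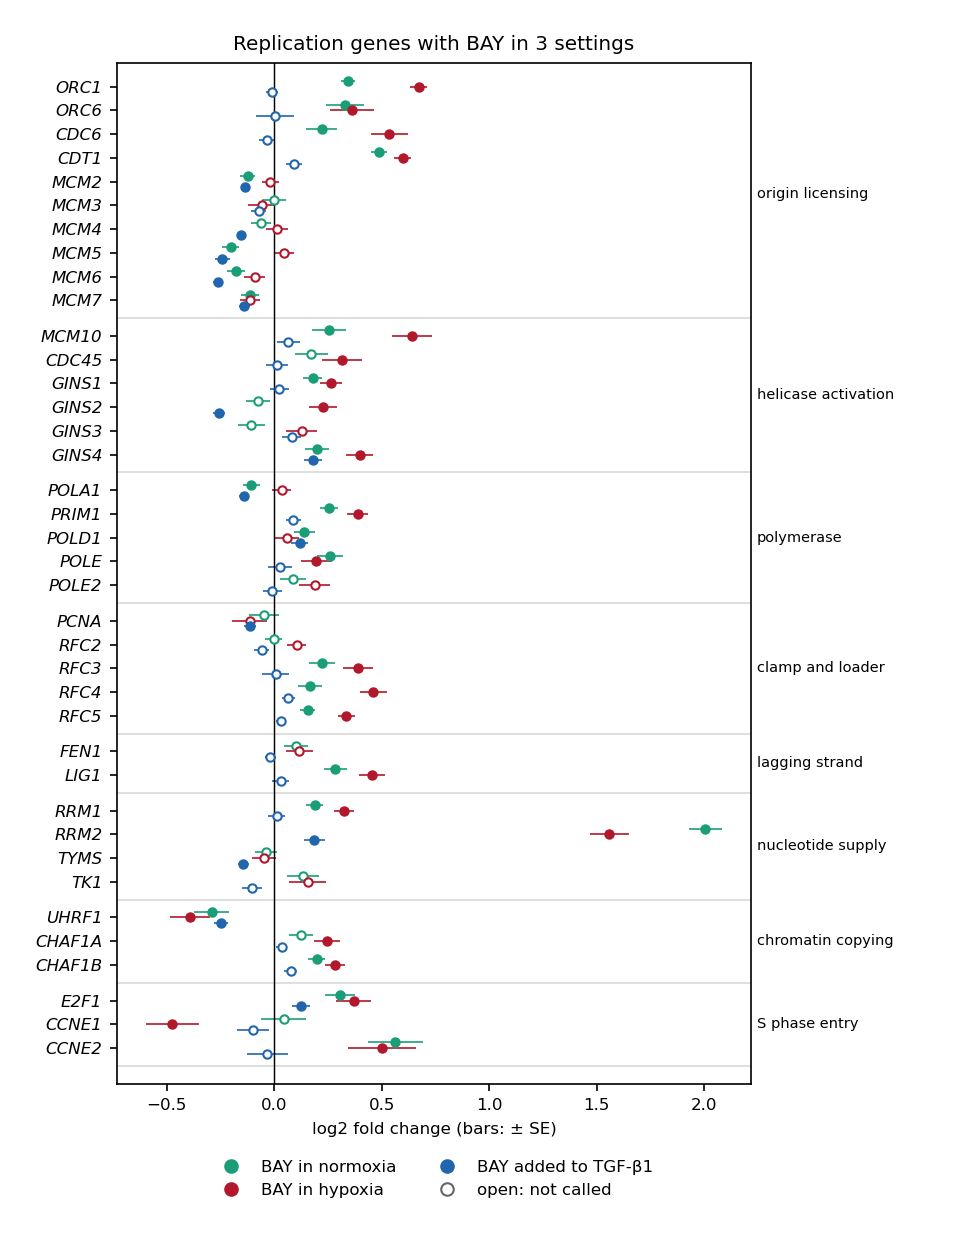
Log2 fold changes of the 38 members with BAY in normoxia (green), in hypoxia (red) and added to TGF-β1 (blue), by role, with bars of ± SE; open circles were not called. RRM2 lies at 2.01 and 1.56 without TGF-β1 and at 0.19 with it, and the MCM ring subunits lie at or left of 0 in most cases.

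Across the 3 settings BAY raised RRM2, E2F1 and GINS4 in each, and lowered UHRF1 in each, patterns shared by 5.01% and 7.67% of the 20928 genes tested in all 3. The calls of RRM2 and UHRF1 held under all alternatives in each setting. Those of E2F1 and GINS4 in normoxia were lost against controls of subset 2 alone (adjusted p 0.0546 and 0.121). The call of E2F1 on top of TGF-β1 was lost in 6 of 19 alternatives. In 15 members BAY raised the level in normoxia and in hypoxia and was not called on top of TGF-β1, as in 4.64% of all genes. Among these 15, the TGF-β1 by BAY interaction was called for CCNE2, CDC6, CDT1, LIG1, ORC1 and RFC5 and not for the others. In 5 members (MCM2, MCM5, MCM6, MCM7 and POLA1) BAY lowered the level in normoxia and on top of TGF-β1 and was not called in hypoxia, as in 2.57% of all genes. Of these 5, the oxygen by BAY interaction was called for MCM5 alone. The normoxic calls of MCM7 and POLA1 were each lost in 9 of 17 alternatives. The normoxic and the TGF-β1 settings share no library, and the hypoxic setting shares none with either.

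Other genes of replication, from lists chosen with earlier results of these data known, are given by their counts. Of 34 other replication factors, 26 fell and 5 rose in hypoxia (median -0.50), among them CLSPN, the fork checkpoint mediator, by 2.18, DSCC1, a subunit of an alternative clamp loader, by 1.63, and RPA2, a subunit of the single-strand binding protein, by 0.67. With TGF-β1 28 of the 34 rose and 3 fell, with CLSPN up by 0.87 and POLD4, a small subunit of the lagging strand polymerase, by 1.35. RPA2 rose by 0.10 with TGF-β1, and its sign turned when libraries were scaled by totals alone. Of 13 further genes of nucleotide supply and chromatin, 12 fell in hypoxia, among them DNMT1, the maintenance methyltransferase that UHRF1 recruits, by 0.95, and 10 rose with TGF-β1. All 15 DNA repair genes shared with replication fell in hypoxia (median -0.69), led by BARD1 at -1.38, and 13 rose with TGF-β1.

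Regulators of the step from G1 to S were mixed. Of 29 tested, 19 fell and 5 rose in hypoxia, and 16 rose and 8 fell with TGF-β1. CCND1, the D cyclin that starts the step, fell in hypoxia by 1.91, from 17.8 ± 2.34 to 4.74 ± 0.169 CPM (SD, n = 5 and 3), and rose with TGF-β1 by 1.24 to 42.1 ± 1.69 CPM. It fell with BAY by 1.84 in normoxia, 2.27 in hypoxia and 0.42 on top of TGF-β1. CDKN1C, an inhibitor of cyclin-dependent kinases, rose with BAY by 2.74 in normoxia (to 239 ± 14.6 CPM) and by 2.94 in hypoxia, and fell by 2.13 with TGF-β1. These are the libraries in which 19 members rose with BAY in normoxia.

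The inhibitors CDKN1A and CDKN1B did not move alike. CDKN1A fell by 0.36 in hypoxia and by 0.86 with BAY in normoxia, and rose by 1.08 with TGF-β1. CDKN1B rose by 0.76 in hypoxia and by 0.42 with BAY in normoxia. MYC, a driver of growth genes, rose by 0.63 in hypoxia and fell by 1.06 with BAY in normoxia. E2F7 and E2F8, E2F factors that repress, fell in hypoxia by 0.51 and 0.94, and rose with TGF-β1 by 1.82 and 0.41. CDKN2B, an inhibitor of the D cyclin kinases and a known TGF-β1 target, rose by 3.16 with TGF-β1, where 32 members also rose.

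Mitosis genes set a contrast to the members. Of 30, 14 fell, 3 rose and 13 were not called in hypoxia, with a median of -0.15 against -0.94 for the members, and the difference between the lists was not tested. TOP2A, which untangles sister chromatids, was not called in hypoxia (0.06), nor was CCNB1, the mitotic cyclin (-0.14), while MKI67, a proliferation marker, fell by 0.44. With TGF-β1 29 of the 30 rose (median 0.55), with CCNB1 up by 0.72. BAY on top of TGF-β1 raised 18 of the 30 and lowered none, with TOP2A up by 0.41 from 522 ± 38.2 to 695 ± 48.1 CPM (SD, n = 5 each). Over all genes 13.9% rose and 15.6% fell in that comparison, and of the members 4 rose, 10 fell and 24 were not called. The difference between the lists was not tested.

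**Figure D4:**
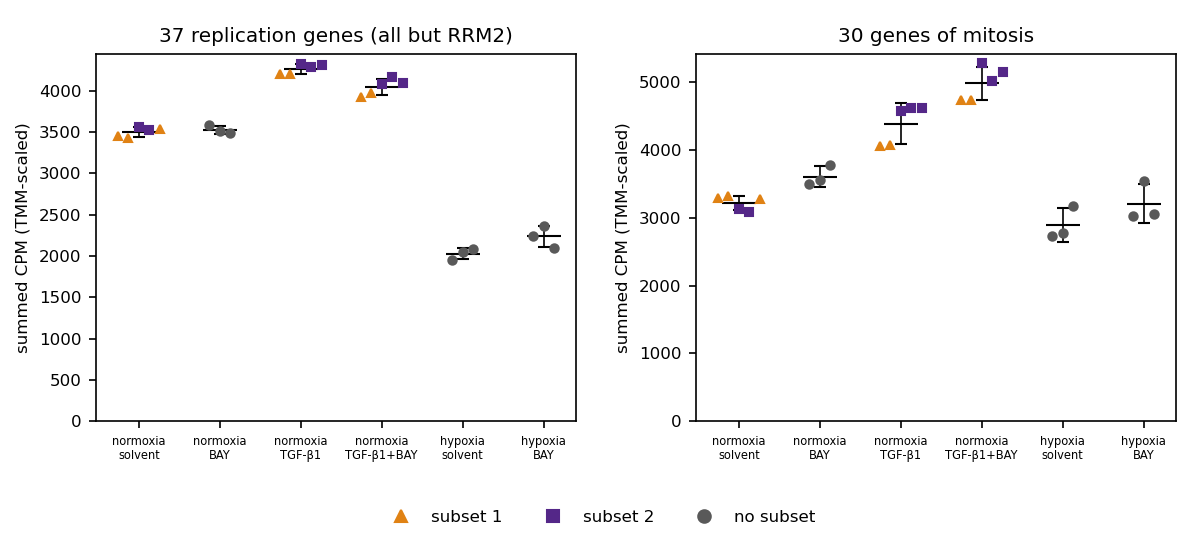
Summed level (CPM, axes from 0) of 37 members without RRM2 (left) and of 30 mitosis genes (right) in every library of the 6 groups, with mean ± SD and symbols by subset. The hypoxic solvent libraries lie between 1956 and 2083 CPM on the left, below all 5 controls. On the right they lie at 2734, 2774 and 3179 CPM. There replicates 1 and 2 are below all 5 controls (3094 to 3321 CPM) and replicate 3 is among them.

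The 30 mitosis genes summed to 3224 ± 101 CPM in controls, 2896 ± 246 CPM in hypoxia, 4391 ± 297 CPM with TGF-β1 and 4984 ± 247 CPM with both agents (SD, n = 5, 3, 5 and 5). The 37 members summed to 4047 ± 97.9 CPM with both agents and 4269 ± 59.3 CPM with TGF-β1 alone, and the libraries of these 2 groups did not overlap (3922 to 4164 and 4205 to 4326 CPM). A sum is weighted to abundant genes such as PCNA and the MCM ring. The median log2 CPM over all 38 members, which weights genes equally, had the opposite order, 6.33 (6.31 to 6.35) with both agents and 6.27 (6.23 to 6.30) with TGF-β1, also without overlap, and the median log2 fold change of the members was -0.00.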

How the data were processed

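Poly(A) RNA-seq libraries of HK-2 cells were analysed from 1 table of estimated counts per Ensembl gene that the authors deposited, with 65180 IDs and 24 libraries. Per the submitters' processing notes these came from Salmon on GRCh38 (hg38), with DESeq2 used for tests. Tool versions, the annotation release and the use of strand: not given in the sources used here. Because Salmon splits shared reads among similar transcripts, the values of paralogs, pseudogenes and overlapping genes can affect each other.

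Estimated counts were first rounded to whole numbers, and 58919 IDs were given a symbol by Ensembl ID. Positions are those of GENCODE 29 (GRCh38), possibly another release than the authors used. In edgeR 4.0.16 (R 4.3.3), the hypoxia experiment (14 libraries, 21316 genes after filterByExpr) and the TGF-β1 experiment (18 libraries, 21639 genes) were fitted separately with TMM scaling and robust quasi-likelihood tests, 2-sided, with 8 normoxic libraries (solvent or BAY) in both fits. P-values were adjusted over all genes of a fit, and a gene was called below 0.05. The SE is approximate: the size of the log2 fold change over the root of its F statistic. The scripts were tested on simulated data.

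Totals per library ran from 78862528 to 105571250 counts, so the spread between libraries rather than counting limits most values. All 39 replicate pairs differed by more than sampling noise (chi-square per degree of freedom 5.48 to 48.4), and each library counts as 1 replicate. Since all cultures come from 1 line, p-values reflect only the spread between these samples, which may be technical.

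The members and all lists were chosen with earlier results of these data known. All 38 members are named, as are 12 genes of the other lists in every comparison and, per comparison and list, the 2 called genes with the largest change at 1 CPM or more, of which the text gives a selection. Of the genes in the other lists, 2 are not analysed here, and the levels of some marker genes are not reported here. Alternatives were library totals alone, RLE factors, DESeq2 1.42.0, voom in limma 3.58.1, no filter, 1 fit of all 24 libraries, a replicate block, each subset alone and each library left out.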

Additional observations from a re-analysis of the deposited data

Results flagged for a closer look

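With TGF-β1, CHAF1B stood at 35.5 CPM in replicate 2 and between 36.5 and 36.8 CPM in the other 4 libraries, so this library lay far from the rest relative to the group's range. It is 1 of 114 groups of 5 libraries examined in this way, and chance alone flags about 1 in 20.

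The effect of BAY differed between hypoxia and normoxia by the test of the interaction (log2 values, edgeR) for CCNE1 (-0.52), GINS2 (0.30), MCM10 (0.39), MCM5 (0.25), ORC1 (0.33), RFC4 (0.29), RFC5 (0.18) and RRM2 (-0.45). Leaving out 1 library ended the call in 10 cases each for CCNE1 and MCM10, 6 for RFC5, 5 for RFC4, 4 for GINS2 and 3 for RRM2 (adjusted p 0.0505 to 0.116), and in none for ORC1 and MCM5. MCM5 fell with BAY in normoxia and was not called in hypoxia, and CCNE1 fell with BAY in hypoxia and was not called in normoxia.

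The effect of BAY differed between cells with and without TGF-β1 by the same test for CCNE2 (-0.58), CDC6 (-0.24), CDT1 (-0.38), GINS2 (-0.16), GINS3 (0.21), LIG1 (-0.24), ORC1 (-0.34), RFC5 (-0.11), RRM2 (-1.80) and TK1 (-0.22). RRM2 stands apart in size, and the others are each below 1 on the log2 scale.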

How the results depend on the processing

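The counts of members called in hypoxia (38, with 36 lower), with TGF-β1 (34, 32 higher), with BAY in hypoxia (23, 21 higher) and with BAY on TGF-β1 (14, 10 lower) stayed within 1.5 times under all alternatives run. For BAY in normoxia (25, 19 higher) the controls of subset 2 alone gave 13 calls, 10 of them higher. The oxygen by BAY interaction (8, 6 higher) gave 3 calls (1 higher) with library totals alone, 3 (2 higher) with the replicate number as a block, 10 higher with DESeq2, and 3 to 12 calls (2 to 11 higher) with 1 library left out. The TGF-β1 by BAY interaction (10, 9 lower) gave 18 calls (17 lower) with DESeq2, 19 (18 lower) with the replicate block, 28 (28 lower) in subset 1 alone, 6 with all 24 libraries in 1 fit, 14 lower with library totals alone, and 7 to 11 calls (7 to 10 lower) with 1 library left out. With TGF-β1, library totals alone turned the sign of MCM3 (-0.13) and MCM5 (-0.083), which then passed the threshold as lower, and of MCM7 (-0.0079), POLA1 (-0.025), RFC2 (-0.010) and RPA2 (-0.036), and moved the median of all genes to -0.175. That scaling also moved the share of all calls that were higher from 47.5% to 34.1% with TGF-β1, from 43.6% to 33.1% with BAY in hypoxia, from 52.7% to 28.5% in the oxygen by BAY interaction and from 65.9% to 48.6% in the TGF-β1 by BAY interaction. The cause of these shifts was not tested. Samples with the same replicate number share only that number: their deviations correlated between -0.112 and 0.171. A correlation of 0.1 was passed by 2 of 5 pairs of controls with TGF-β1 and by 2 of 5 of TGF-β1 with both agents. It was passed by 0 of 3 pairs of controls with hypoxic solvent, of controls with BAY, and of hypoxic solvent with hypoxic BAY. Depth did not limit the members, whose lowest level was above 3 CPM in every library.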

Other observations

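Among DNA repair genes shared with replication and among mitosis genes, more rose than fell with BAY alone, and 15 of the mitosis genes were not called in hypoxia. Of 15 repair genes, 8 rose and 1 fell in normoxia and 12 rose and none fell in hypoxia, but with TGF-β1 1 rose and 1 fell. Of 30 mitosis genes, 17 rose and 1 fell in normoxia and 12 rose and 3 fell in hypoxia. Of 29 regulators of the step from G1 to S, 9 rose and 12 fell in normoxia and 7 rose and 14 fell in hypoxia. Over all genes 20.6% rose and 23.3% fell in normoxia, and 16.5% rose and 21.4% fell in hypoxia. POLD3, a subunit of the lagging strand polymerase, rose by 0.64 with BAY in hypoxia, and the difference from normoxia was 0.43 (edgeR adjusted p 0.000328). FANCD2, a repair protein of stalled forks, rose by 0.48 in normoxia and by 0.75 in hypoxia with BAY. ATAD2, a chromatin factor of S phase, rose by 0.44 and 0.59 in the same settings. CCND2, another D cyclin, fell by 1.96 with BAY in normoxia and fell by 2.81 with TGF-β1. CHTF18, a subunit of the alternative clamp loader, rose with BAY by 0.64 in normoxia and 0.48 in hypoxia, and POLE4, a small subunit of the leading strand polymerase, fell by 0.42 in normoxia.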
